A study of Mus musculus with 13 samples.

Results

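The genes described here are the secreted Wnt proteins of the mouse, the receptors that bind them and the secreted proteins that raise or lower their activity. They were chosen by symbol (Wnt, Fzd, Dkk, Sfrp and Rspo followed by a digit, Lgr4 to Lgr6, Lrp5 and Lrp6), and 47 of the 26264 genes in the table have such a symbol. Of these, 43 reached 10 or more normalized counts in at least 2 of 13 libraries and are the members: 17 Wnt ligands, 10 Frizzled receptors, 2 LRP co-receptors, 4 R-spondins, 3 R-spondin receptors, 6 secreted antagonists and Fzd10os, a transcript from the strand opposite Fzd10 that encodes no receptor. The 4 that did not reach this level were Dkk1, Dkk4, Wnt3a and Wnt8a, none of which exceeded 6.47 normalized counts in any library.

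The RNA came from tissue punches of the ventral tegmental area (VTA), a midbrain region with dopamine neurons, of male and female mice of a strain labelled C57BlJ/6. All animals had received a virus in the VTA on postnatal day 14, carrying either Setd7, a histone lysine methyltransferase, or green fluorescent protein (GFP), and were sampled as adults with or without social defeat stress in adulthood. Without defeat there were 3 libraries with GFP (GFP control, 1 of them female) and 4 with Setd7 (Setd7 control, 2 of them female). After defeat there were 4 with GFP (GFP defeat, 2 of them female) and 2 with Setd7 (Setd7 defeat, 1 of them female). The kind of virus, the promoter that drove it, the cells it reached and the adult age are not given in the sources used here. The labels do not say that each library is a separate animal, so p-values measure the spread between libraries, which may be technical. The column of Setd7 defeat replicate 1 carries 2 joined library numbers, and whether that library holds 1 animal is not settled.

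Wnt proteins are lipid-modified signals that bind Frizzled receptors on nearby cells. With the co-receptors Lrp5 or Lrp6 they stabilise beta-catenin, which acts with TCF/LEF factors on target genes, while with other co-receptors they act on cell polarity and calcium. Sfrp proteins bind Wnts outside the cell, most Dkk proteins block Lrp5 and Lrp6, and R-spondins bound to Lgr4, Lgr5 or Lgr6 keep Frizzled receptors at the cell surface. In the embryonic midbrain, Wnt1 and Wnt5a take part in forming dopamine neurons, and in the brain Wnt7a and Wnt7b act on blood vessels.

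Values are counts divided by size factors (normalized counts), and library depth was 26.5 to 50.8 Mreads (mega-reads) assigned to genes. Setd7 read 10888 to 14538 in the 7 GFP libraries and 28587 to 158681 in the 6 Setd7 libraries, with no overlap. The lowest of these 6 was Setd7 control replicate 4, and the others held 81302 to 158681. Setd7 control replicate 4 also had a summed level of microglia markers of 28448, against 10500 to 16903 in the other libraries. The dopamine neuron gene Th, which makes the dopamine precursor, was present everywhere but low in GFP control replicate 2 (3392 normalized counts), GFP control replicate 3 (2508) and GFP defeat replicate 1 (2539), where the other libraries held 9760 to 19111. The mean of 11 thalamus markers, on a log2(normalized count + 1) scale, was 10.96 in GFP control replicate 2, 10.11 in GFP defeat replicate 4 and 9.31 in GFP control replicate 3, against 6.88 to 8.11 elsewhere. The markers were split in GFP control replicate 3. Slc17a7 (5064 normalized counts), Lhx9 (1444), Shox2 (1541), Lhx2 (209), Zic1 (1833) and Rora (9087) lay above the libraries with low means. Prkcd (394), Gbx2 (34.5), Ramp3 (12.9), Synpo2 (403) and Plekhg1 (2106) lay inside their range. The mean of 16 meningeal fibroblast markers was 10.29 in Setd7 defeat replicate 1 against 7.41 to 8.49 in the others. In tissue punches, fewer cells of a type and less RNA per cell cannot be told apart. Where leaving these libraries out moved a printed member difference by over 1.5 times, a value without them is given.

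Among the ligands, Wnt7b had the highest level per kilobase of exon, with a median over 13 libraries of 257 normalized counts per kilobase. Wnt5a followed with 162 and Wnt7a with 155. The ranges of these 2 across libraries overlap on that scale, so their order is not fixed by the data. Wnt2b, at 87.6, and Wnt3, at 82.2, came next, and the other 12 ligands lay between 1.56 (Wnt9b) and 24.6 (Wnt4). Wnt7b made up a median of 28.3% of the summed ligand level per kilobase, Wnt5a 18.1%, Wnt7a 17.6%, Wnt2b 10.2% and Wnt3 9.45%. Wnt1, which patterns the embryonic midbrain, was close to the limit of detection in this adult tissue, at 3.52 to 23.5 normalized counts.

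Fzd3, a Frizzled receptor known for guiding axons, stood above the other receptors, with 698 normalized counts per kilobase and a median of 37.9% of the summed Frizzled level per kilobase. Fzd1 had 272 and Fzd2 203, with overlapping ranges across libraries, and the remaining 7 Frizzled genes lay between 32.1 (Fzd10) and 176 (Fzd9). The co-receptor Lrp6 had 292 normalized counts per kilobase and its relative Lrp5 68.2. Lgr4 was the highest R-spondin receptor at 252, above Lgr5 at 50.1 and Lgr6 at 23.4. Of the R-spondins, Rspo1 had 74.0, Rspo3 46.4, Rspo2 17.7 and Rspo4 3.87.

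The highest members of all were the secreted antagonists Dkk3, at 955 normalized counts per kilobase, and Sfrp5, at 889.5, by median. The ranges of both across libraries overlap with that of Fzd3 on this scale, so the order of the 3 is not fixed by the data. Dkk3 belongs to the Dickkopf family by sequence but is not an established blocker of Lrp5 and Lrp6. Sfrp2 had 129.8 and Sfrp1 83.6, while Sfrp4, at 8.94, and Dkk2, at 8.43, were low. Exon lengths came from an annotation of the previous mouse build matched by gene name, so values per kilobase are approximate, and Fzd10os had no length there.

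**Figure D1:**
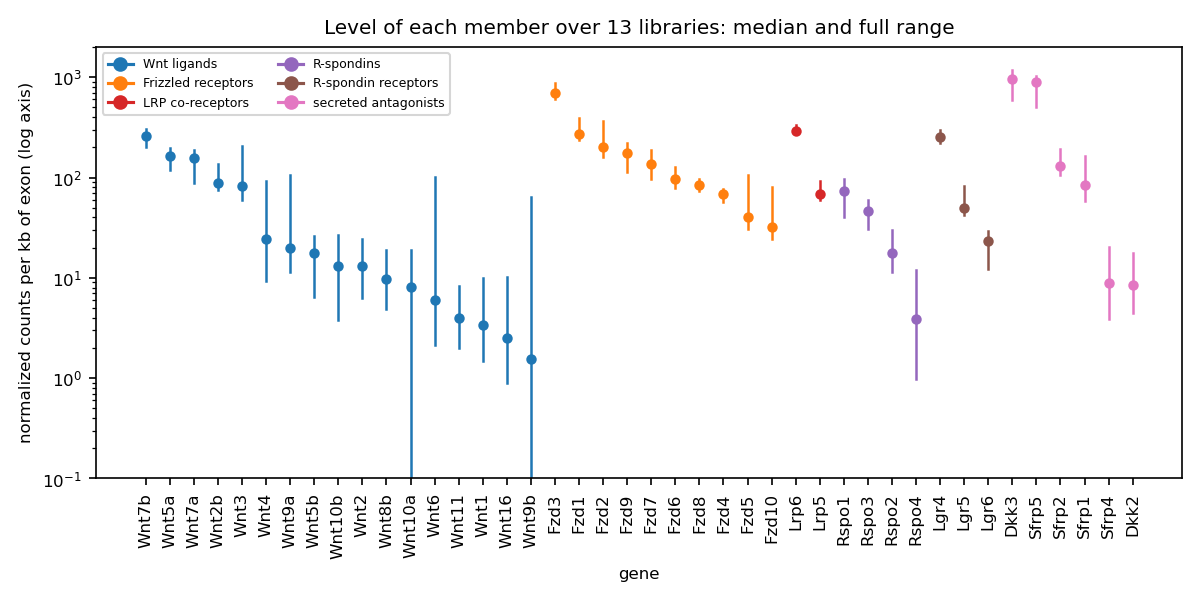
Level of 42 members in normalized counts per kilobase of exon (log axis), where points are medians and lines the full range over 13 libraries. Dkk3, Sfrp5 and Fzd3 are highest and most Wnt ligands lie low. The lines of Wnt10a and Wnt9b run off the axis because some libraries held 0 reads.

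The median standard deviation of log2 values between libraries was 0.406 over the 43 members, and the median member stood at the 74.4th percentile of this spread among all genes tested. Of the 43, 41 members were detected in all 13 libraries and 36 held 10 or more normalized counts in every one. Lrp6 was the steadiest, at 3776 to 4559.9 normalized counts. Members above the 90th percentile of this spread numbered 8 (18.6%), and the widest was Wnt9b, at 0 to 286 normalized counts.

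**Figure D2:**
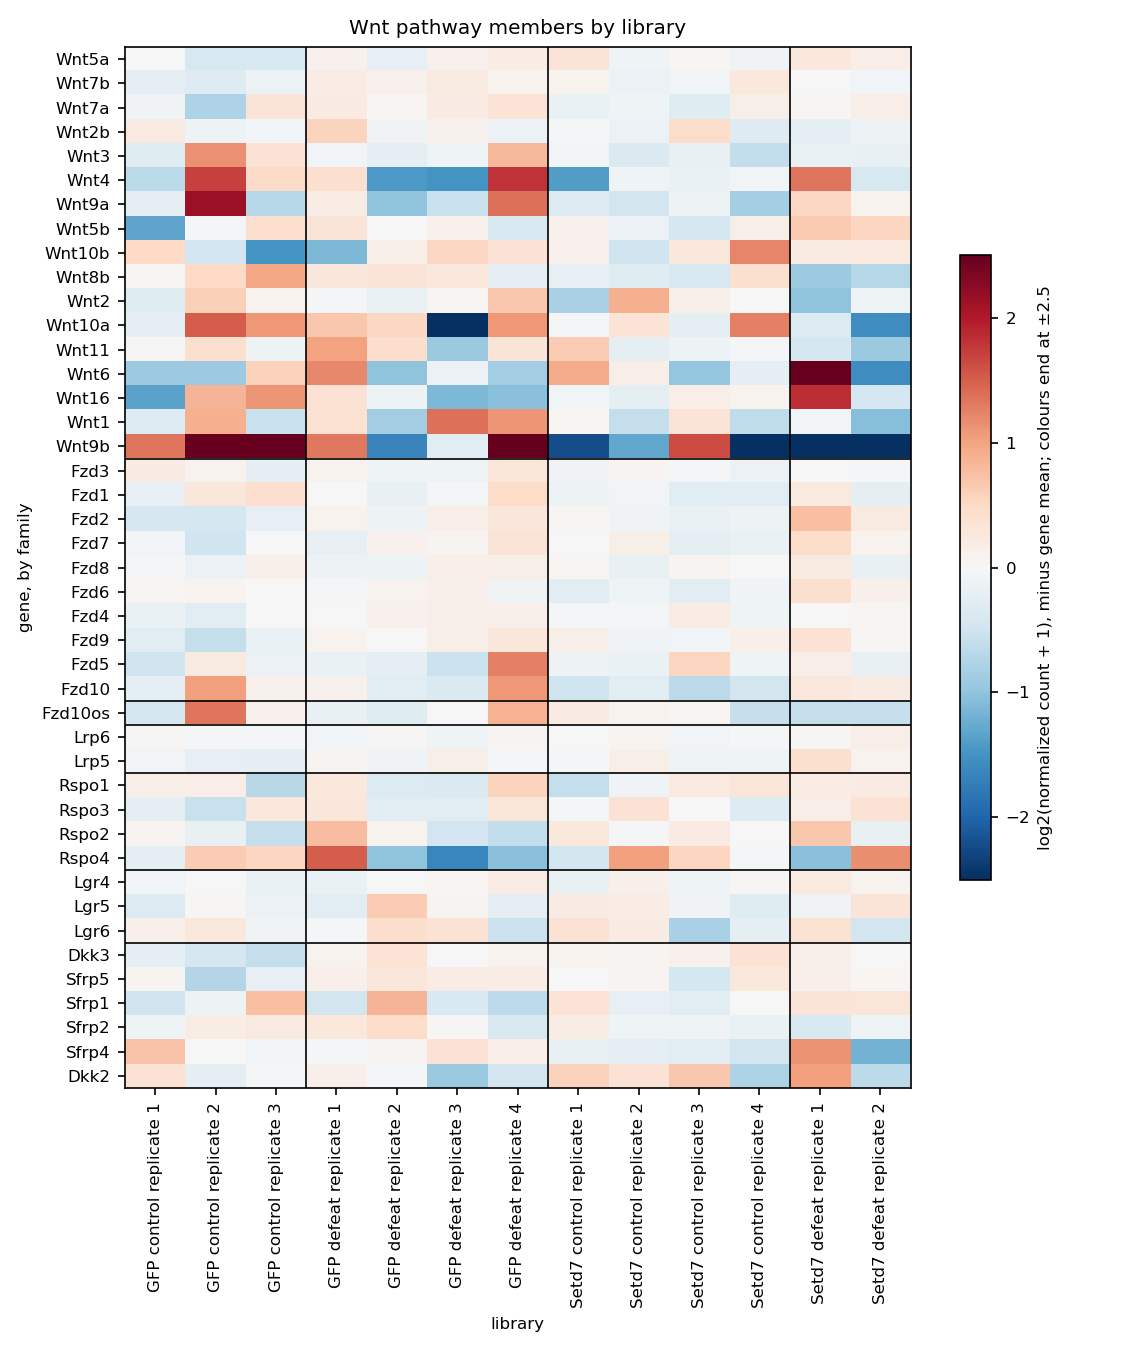
Each cell is a member's log2(normalized count + 1) in a library minus that gene's mean over 13 libraries, with genes by family in rows, libraries by group in columns, and colours that end at ±2.5. Wnt3, Wnt4, Wnt9a and Wnt9b are high in GFP control replicate 2 and GFP defeat replicate 4, and Wnt6 is high in Setd7 defeat replicate 1.

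Across the comparisons, none of the 43 members passed limma's test with Benjamini-Hochberg adjustment at 0.05. The share of all genes tested that passed was 0% in 6 of the 8 comparisons, 0.00563% for the averaged Setd7 effect and 0.062% for sex. Count tests were run on the 11 libraries whose recovered whole reads an automatic unit check recognised, without GFP defeat replicate 4 and Setd7 defeat replicate 1. Setd7 defeat thus had 1 library in these tests and was assumed to vary like the other groups. There edgeR's quasi-likelihood test called 0 members. DESeq2 called Dkk3 for Setd7 without defeat, where it called 0.26% of genes, and no member in the other comparisons. In those it called 0.22% (defeat with GFP), 0.017% (Setd7 after defeat), 0.00567% (defeat with Setd7), 0% (interaction), 0.345% (averaged Setd7 effect), 0.0284% (averaged defeat effect) and 0.136% (sex) of genes. The DESeq2 shares are of the genes to which it gave an adjusted p, and a gene without one could not be called. As no member passed limma, all differences below are values on a log2(normalized count + 1) scale with their standard error (SE). None is a change that passed the main test.

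The number of members at an unadjusted limma p under 0.05 is read here against the same share of all genes tested. For Setd7 without defeat (Setd7 control against GFP control), 7 of 43 members (16.3%) had such a p, against 8.01% of all genes. Of these, 4 were higher (4.31% of all genes) and 3 lower (3.7%). For defeat with GFP (GFP defeat against GFP control) 7 did, against 9.25%, and all were higher (4.87% of all genes, with 4.38% lower). These comparisons share the 3 GFP control libraries.

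With Setd7 after defeat (Setd7 defeat against GFP defeat), 1 member was higher and 2 lower, against 2.59% and 2.26% of all genes (4.85% together). With defeat in the Setd7 groups, 3 were higher and 0 lower, against 1.45% and 1.13% (2.59% together). The interaction had 1 higher and 2 lower, against 2.51% and 2.45% (4.96% together). The averaged Setd7 effect had 4 higher and 3 lower, against 3.7% and 3.42% (7.12% together).

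The averaged defeat effect had the highest count, 10 of 43 members (23.3%) against 5.18% of all genes. Of these, 9 were higher (2.34% of all genes) and 1 lower (2.83%). Its members' median log2 fold change was 0.12, with 31 of 43 above 0, against 50.3% of all genes above 0. Without Setd7 defeat replicate 1, which leaves 1 library in that group, the count was 2 of 43 (4.65%), the same share as in all genes (4.65%), the median 0.03 and the number above 0 24 of 43. The count was 5 when GFP control replicate 2 was left out (4.36% of all genes) and 6 when GFP defeat replicate 3 was (4.77%). For Setd7 without defeat, the count was 2 without GFP control replicate 2 (4.65% of members and 6.8% of all genes) and 12 without GFP control replicate 1 (27.9% and 9%). For defeat with GFP it was 4 when GFP control replicate 2 was left out (9.3% and 8.07%).

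Groups whose libraries did not overlap were counted as well. With Setd7 and no defeat, 3 members lay wholly higher (Dkk3, Fzd2 and Fzd9, 4.17% of all genes) and 3 wholly lower (Fzd6, Fzd10 and Sfrp4, 4.09%). With defeat in the GFP groups, 5 lay wholly higher (Dkk3, Fzd2, Fzd9, Sfrp5 and Wnt7b, 4.26%) and 0 lower (4.74%). With Setd7 after defeat, 2 lay wholly higher (Fzd6 and Wnt5b, 7.09%) and 5 lower (Sfrp5, Wnt7b, Wnt8b, Wnt9b and Fzd10os, 6.98%). With defeat in the Setd7 groups, 5 lay wholly higher (Fzd2, Fzd6, Fzd10, Wnt5b and Wnt9a, 4.18%) and 3 lower (Wnt8b, Wnt10a and Wnt11, 4.96%). No member separated all Setd7 from all GFP libraries (0.062% and 0.0732% of all genes higher and lower) or all defeated from all control libraries (0.0225% and 0.062%).

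**Figure D3:**
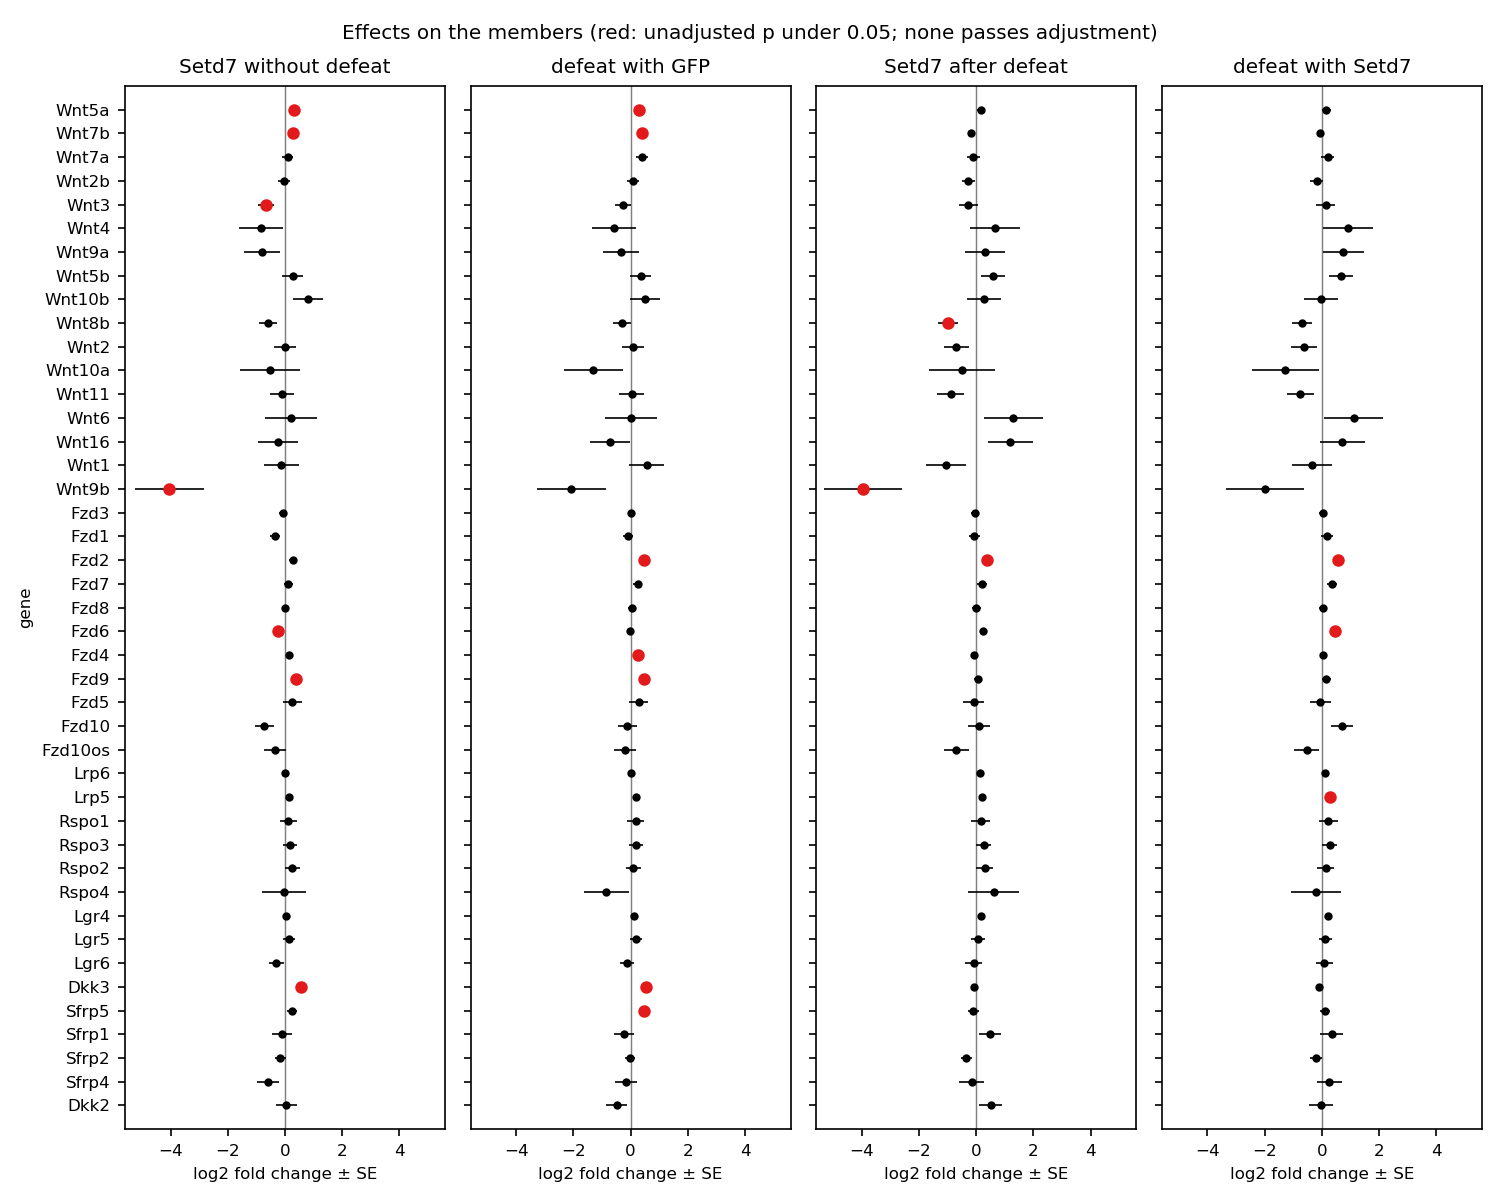
Log2 fold change ± SE of each member in 4 comparisons, with genes in rows. Red points have an unadjusted limma p under 0.05 (7, 7, 3 and 3 members from left to right), and none passes after adjustment over all genes.

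Dkk3 had the smallest p of the members in both comparisons of 2 groups that use the GFP control libraries. It read 2606, 2282 and 1999 normalized counts in GFP control, against 3239.6, 3837, 3002 and 3247 in GFP defeat. Setd7 control held 3207, 3173, 3256 and 3926, and Setd7 defeat held 3307 and 3022. The value of 3926 came from Setd7 control replicate 4, the Setd7 library with the least Setd7, which was also the highest library for Wnt7b. Every GFP control library lay below every other library, and the other 3 groups overlapped. The difference was 0.55 ± 0.11 (SE) for Setd7 without defeat (limma adjusted p = 0.467, edgeR 0.4996, DESeq2 0.012). For defeat with GFP, Dkk3 was higher by 0.53 ± 0.11 (limma adjusted p = 0.339, edgeR 0.544, DESeq2 0.0512). After defeat, the Setd7 difference in Dkk3 was −0.07 ± 0.12, with a 95% interval of −0.33 to 0.19, and the interaction was −0.62 ± 0.16 (limma adjusted p = 0.942). Among the GFP control libraries, replicate 1, which was not low in Th, held 2606, and GFP defeat replicate 1, which was, held 3239.6. Without the 3 libraries low in Th, which leaves 1 GFP control library, Dkk3 was higher by 0.40 with Setd7 and no defeat, and by 0.39 with defeat in the GFP groups. Markers of dopamine neurons moved the same way in both comparisons (20 of 20 higher, 16 and 4 at an unadjusted p under 0.05). Those of oligodendrocytes (11 of 12 higher in each, 0 and 5 at such a p) and their precursors (7 of 8 in each, 1 and 4) did as well. Of the microglia markers, 12 of 12 and 9 of 12 were higher (0 and 0 at such a p). The part of these cell types in the Dkk3 values was not tested beyond the fits above and 1 with the dopamine neuron mean as a covariate. That fit gave 0.40 with Setd7 and no defeat and 0.42 with defeat in the GFP groups. Means of the other 3 lists were not used as covariates. Averaged over defeat, the Setd7 difference was 0.24 ± 0.08 for Dkk3, 0.23 ± 0.10 for Wnt5a and 0.17 ± 0.07 for Lrp5, and without the libraries low in Th these were 0.15, 0.11 and 0.15.

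Sfrp5, a secreted Frizzled-like protein that binds Wnts, read 1690.05, 957 and 1393 normalized counts in GFP control, against 1752, 1952, 1816 and 1820.2 in GFP defeat. The lowest GFP defeat library lay above the highest GFP control library. Its difference for defeat with GFP was 0.46 ± 0.17 (limma adjusted p = 0.456). It was 0.26 without GFP control replicate 2, 0.21 without the 3 libraries low in Th, and 0.27 with the dopamine neuron mean as a covariate. Sfrp5 read 1599.7, 1689, 1188 and 1928 in Setd7 control, against 1741 and 1661 after defeat, and these ranges overlap. Sfrp4 read 63.9, 38.6 and 36.6 in GFP control, against 33.8, 32.6, 31.3 and 27.5 in Setd7 control, which do not overlap, but its limma test gave no unadjusted p under 0.05.

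Of the abundant ligands, Wnt7b read 1068, 998 and 1127 normalized counts in GFP control, against 1409.8, 1345, 1456 and 1323 in GFP defeat. All GFP defeat libraries lay above all GFP control libraries. The difference was 0.38 ± 0.10 (limma adjusted p = 0.355, DESeq2 0.0937). With the Setd7 virus, Wnt7b read 1324, 1118, 1183 and 1488 without defeat and 1259 and 1178 after it, so that the interaction was −0.44 ± 0.15 (limma adjusted p = 0.942). For Setd7 without defeat it was higher by 0.26 ± 0.10 (limma adjusted p = 0.579), with 1 of 4 Setd7 control libraries inside the GFP control range, and it was 0.17 without Setd7 control replicate 4 and 0.16 with the thalamus marker mean as a covariate. Wnt5a, which acts largely without beta-catenin, read 1227, 926 and 924 in GFP control. It read 1316, 1065, 1317 and 1391 after defeat with GFP, 1537, 1130.02, 1271 and 1156 in Setd7 control, and after defeat with Setd7 it held 1464 and 1366. GFP control overlapped both groups it was compared with. The Setd7 difference without defeat was 0.30 ± 0.13 and the defeat difference with GFP 0.30 ± 0.13, and they were 0.03 and 0.01 without the 3 libraries low in Th. Without GFP control replicate 1 they were 0.45 and 0.46, and without the 2 libraries richest in thalamus markers the latter was 0.19.

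Fzd2, a receptor for Wnt5a among other ligands, was the member with the smallest p in the averaged defeat effect. It read 595, 585 and 690.4 normalized counts in GFP control, against 846, 727, 889 and 967 in GFP defeat. With the Setd7 virus it read 818, 745, 711 and 729 without defeat and 1344 and 924 after it. Within each virus, every defeated library lay above every control library. Averaged over the viruses, Fzd2 was higher with defeat by 0.51 ± 0.10 (limma adjusted p = 0.922, edgeR 0.9996, DESeq2 0.648). The difference was 0.45 ± 0.13 with GFP and 0.57 ± 0.15 with Setd7, and the interaction was 0.12 ± 0.20, with a 95% interval of −0.32 to 0.56. Fzd2 was also higher with Setd7 after defeat, by 0.39 ± 0.15 (limma adjusted p = 0.99), and averaged over defeat, by 0.33 ± 0.10. Without Setd7 defeat replicate 1, the averaged defeat difference was 0.37, that of defeat with Setd7 0.27, that of Setd7 after defeat 0.08 and the averaged Setd7 difference 0.18. Without Setd7 defeat replicate 2, defeat with Setd7 gave 0.88 and Setd7 after defeat 0.69. With the meningeal marker mean as a covariate, Fzd2 was higher by 0.12 in the Setd7 than in the GFP defeat libraries and by 0.31 in the Setd7 defeat than in the Setd7 control libraries.

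Fzd9 had its lowest values in GFP control, at 329.9, 263 and 354 normalized counts, against 422, 394, 443 and 487 in GFP defeat and 441, 376, 379 and 433 in Setd7 control. GFP control did not overlap either of these groups. The differences were 0.47 ± 0.14 for defeat with GFP and 0.37 ± 0.14 for Setd7 without defeat (limma adjusted p = 0.392 and 0.579), and 0.29 and 0.25 without GFP control replicate 2 and GFP defeat replicate 4, the libraries richest in thalamus markers. Fzd4, a receptor of brain blood vessels, read 411, 385 and 463 in GFP control, against 456, 497, 507 and 501 in GFP defeat, with 1 GFP control library inside the GFP defeat range and a difference of 0.24 ± 0.10.

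Fzd6 was the member with the smallest p for defeat with Setd7. It read 379.98, 434, 386 and 440.4 normalized counts in Setd7 control, against 617 and 509 in Setd7 defeat, which do not overlap, and was higher by 0.45 ± 0.12 (limma adjusted p = 0.9999). In GFP control it read 482, 489 and 466, all above Setd7 control, a difference of −0.23 ± 0.10 for Setd7 without defeat, and in GFP defeat 453, 496, 507 and 438. The interaction was 0.48 ± 0.16 (limma adjusted p = 0.942). The co-receptor Lrp5 read 664, 754, 629 and 634 in Setd7 control, against 899 and 727 in Setd7 defeat, which overlap, and was higher by 0.27 ± 0.11. Without Setd7 defeat replicate 1, the differences for defeat with Setd7 were 0.31 for Fzd6 and 0.16 for Lrp5. With the meningeal marker mean as a covariate they were 0.36 and 0.17. Averaged over the viruses, the defeat differences were 0.23 ± 0.07 for Lrp5, 0.31 ± 0.10 for Fzd9, 0.21 ± 0.08 for Fzd6 and 0.29 ± 0.12 for Fzd7. On the same average the ligands and antagonists Wnt5a (0.23 ± 0.10), Wnt7b (0.16 ± 0.07), Dkk3 (0.22 ± 0.08) and Sfrp5 (0.28 ± 0.13) were higher and Wnt9b (−2.03 ± 0.91) lower, each with an adjusted p of 0.922 by limma. Without the 3 libraries low in Th, Wnt5a was at 0.08 and Sfrp5 at 0.16, and without the 2 libraries richest in thalamus markers Fzd7 was at 0.17 and Sfrp5 at 0.18. Sfrp5 was also at 0.18 when GFP control replicate 2 alone was left out.

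**Figure D4:**
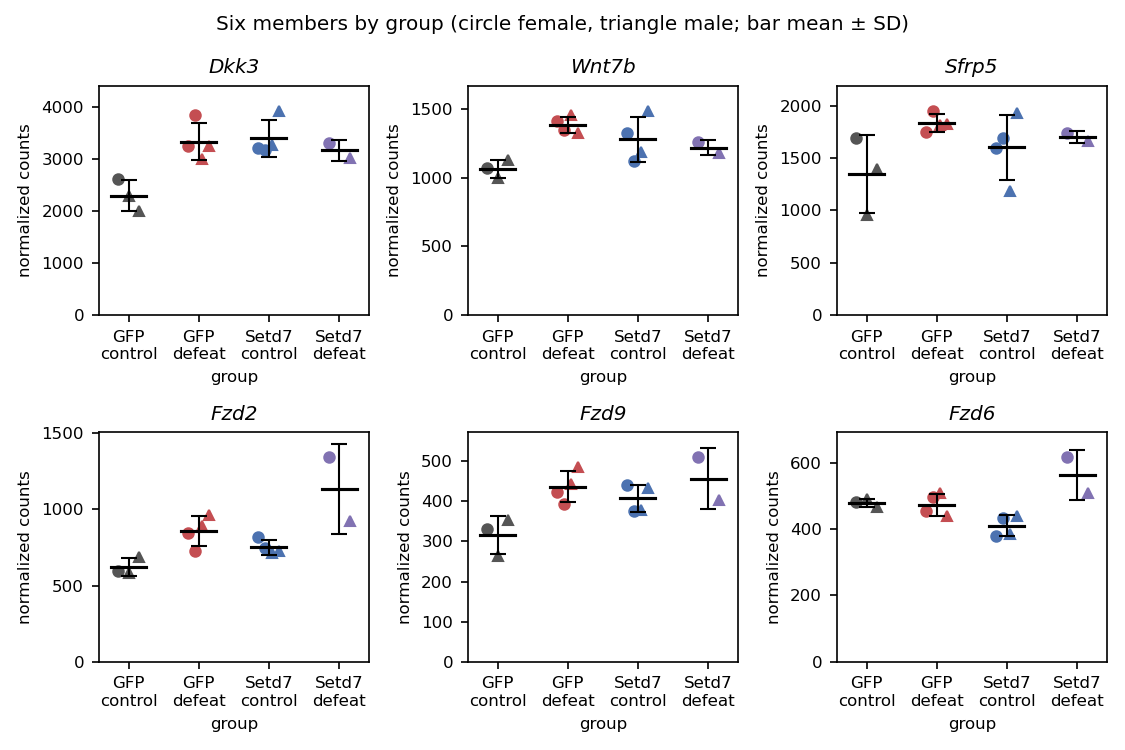
Normalized counts of Dkk3, Wnt7b, Sfrp5, Fzd2, Fzd9 and Fzd6 in each library by group (circles female, triangles male), with bars for mean ± SD. Dkk3 is below every other group in GFP control, and Fzd2 is higher in the defeated libraries of each virus, most of all in Setd7 defeat replicate 1.

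Wnt9b had the largest log2 difference and the lowest median level of the members. It read 23.5, 286 and 63.5 normalized counts in GFP control, against 23.2, 2.08, 7.05 and 97.8 in GFP defeat. In Setd7 control it read 1.09, 2.97, 29.1 and 0, and both Setd7 defeat libraries held 0 reads. Setd7 and GFP libraries overlapped without defeat and did not overlap after it. The averaged Setd7 difference was −4.00 ± 0.91 (limma adjusted p = 0.686), −4.05 ± 1.21 without defeat and −3.96 ± 1.36 after it, on a scale where libraries at 0 depend on the added count. Against a floor of 3 reads per library, Wnt9b was at least 9.96-fold lower in Setd7 defeat than in GFP defeat by group means, and at least 3.30-fold lower without GFP defeat replicate 4. That floor was 3.26 normalized counts on average, and GFP defeat replicate 2, at 2.08, lay below it. With the thalamus marker mean as a covariate the Setd7 difference was −1.74 without defeat, −3.06 after it and −2.40 averaged over defeat. The highest library in each GFP group was also the highest of its group in thalamus markers.

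Wnt9b shared its 2 highest libraries, GFP control replicate 2 and GFP defeat replicate 4, with Wnt3, Wnt4, Wnt9a, Fzd10 and Fzd10os, a set picked after its values were seen. Thus 6 of 43 members (14%) had these as their top libraries, against 3.11% of all genes tested. Wnt9b and Wnt9a were counted in advance, because these libraries were picked for being highest in both. Fzd10 and Fzd10os may share reads, so the 2 shares are not a test. Wnt9a read 354 and 204 normalized counts there and 38.5 to 112 in the other 11. Wnt4 read 365 and 391 there and 38.8 to 283 elsewhere, Wnt3 633 and 497 against 185.5 to 367, and Fzd10 253 and 264 against 78.7 to 150.4. Fzd1 was highest in the 3 libraries with the highest thalamus marker means, at 1461, 1611 and 1657, against 985 to 1427 in the rest. All 11 thalamus markers were lower in Setd7 control than in GFP control (6 at an unadjusted p under 0.05). Their summed level was 10597 to 45844 normalized counts in GFP control, 9970 to 21328 after defeat with GFP, 9923 to 10670 in Setd7 control and 10842 to 10916 in Setd7 defeat, and Gbx2 was at 0 in 1 Setd7 control library. The Setd7 difference of Wnt3 without defeat was −0.67 ± 0.29 (limma adjusted p = 0.609) and 0.0037 with the thalamus mean as a covariate. It was −0.35 without GFP control replicate 2, −0.07 without the 3 libraries low in Th and −1.01 without GFP control replicate 1. Averaged over defeat it was −0.47 ± 0.22, −0.0045 with the thalamus mean as a covariate, −0.19 without the libraries low in Th and −0.31 without GFP control replicate 2. The TCF/LEF factor genes Tcf7l2 and Lef1 read 9009 and 1616 in GFP control replicate 2 and 6575 and 739 in GFP defeat replicate 4.

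**Figure D5:**
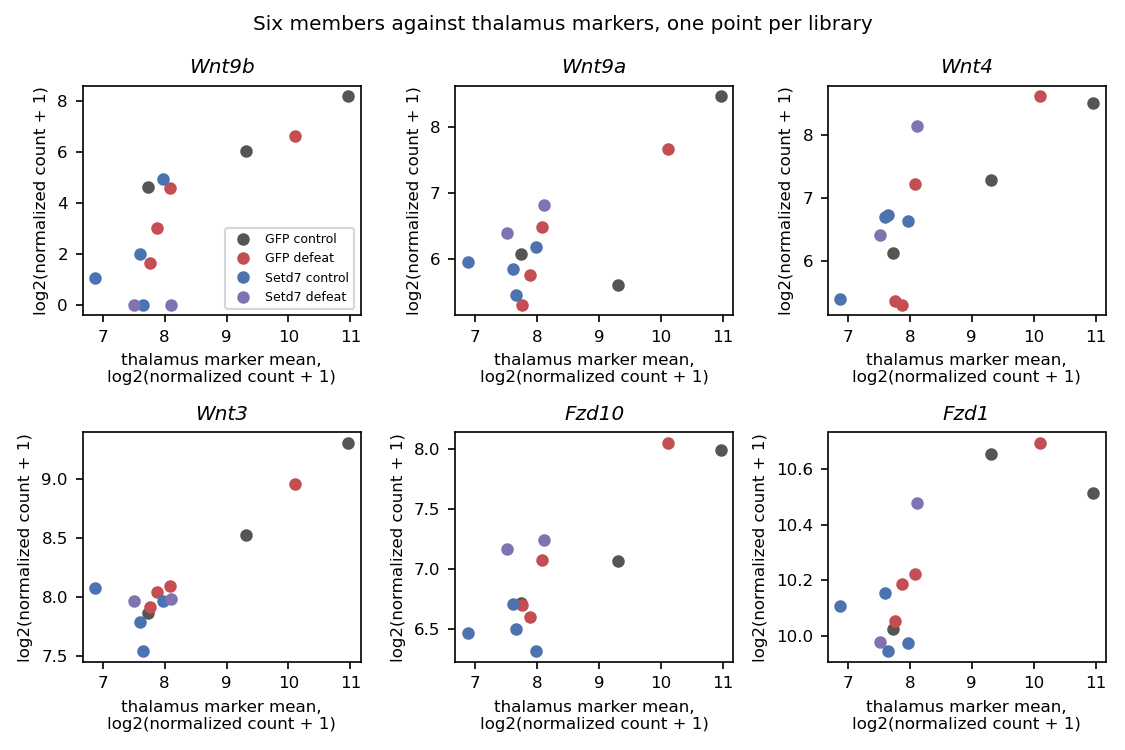
Log2(normalized count + 1) of Wnt9b, Wnt9a, Wnt4, Wnt3, Fzd10 and Fzd1 against the mean of 11 thalamus markers on the same scale, with 1 point per library coloured by group. The libraries with the 2 highest marker means, 10.96 and 10.11, hold the 2 highest values of every gene shown except Fzd1, for which GFP control replicate 3 stands among the top 3.

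The 250 bases before a RefSeq start are shown for 4 members that were high in libraries with high thalamus marker means. Wnt9b, Wnt3 and Wnt9a shared their 2 top libraries, and Fzd1 did not share both with them. The start used lay 25451 bases inside the RefSeq gene for Wnt9b and 81 bases inside it for Wnt9a. For Wnt3 and Fzd1 it was the gene start. These 4 members were chosen after values and motif matches had been seen. Wnt9b and Wnt3 are neighbours on opposite strands of chromosome 11, with windows 23.9 kilobases apart. The RefSeq start of the Wnt9b gene, 25451 bases upstream of the start used, lies past that of Wnt3, so these 2 RefSeq genes overlap. Whether their exons overlap in RefSeq was not tested. Fzd1 was the only member with more than 1 match to the TCF/LEF core, CTTTGA or CTTTGT on either strand, at −242 and −37 from its start (capitals). Sequences are from RefSeq on GRCm38.p6, 5′ to 3′ on the gene's strand, at chr11:103749822-103750071 (minus strand) for Wnt9b, chr11:103773925-103774174 (plus) for Wnt3, chr11:59306680-59306929 (plus) for Wnt9a and chr5:4758217-4758466 (minus) for Fzd1.
Wnt9b: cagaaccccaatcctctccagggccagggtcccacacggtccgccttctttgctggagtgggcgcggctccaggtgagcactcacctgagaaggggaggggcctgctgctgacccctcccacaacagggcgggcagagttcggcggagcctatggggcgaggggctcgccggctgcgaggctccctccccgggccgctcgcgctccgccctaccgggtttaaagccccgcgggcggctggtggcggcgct
Wnt3: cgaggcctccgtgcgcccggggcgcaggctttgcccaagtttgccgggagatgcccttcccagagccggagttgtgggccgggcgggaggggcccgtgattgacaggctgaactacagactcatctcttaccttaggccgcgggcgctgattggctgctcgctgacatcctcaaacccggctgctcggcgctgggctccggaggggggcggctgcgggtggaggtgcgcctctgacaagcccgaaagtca
Wnt9a: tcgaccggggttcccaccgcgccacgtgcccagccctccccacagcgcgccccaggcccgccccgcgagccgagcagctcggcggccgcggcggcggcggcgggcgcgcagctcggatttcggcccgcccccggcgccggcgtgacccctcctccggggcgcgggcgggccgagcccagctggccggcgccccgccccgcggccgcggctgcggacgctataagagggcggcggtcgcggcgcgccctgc
Fzd1: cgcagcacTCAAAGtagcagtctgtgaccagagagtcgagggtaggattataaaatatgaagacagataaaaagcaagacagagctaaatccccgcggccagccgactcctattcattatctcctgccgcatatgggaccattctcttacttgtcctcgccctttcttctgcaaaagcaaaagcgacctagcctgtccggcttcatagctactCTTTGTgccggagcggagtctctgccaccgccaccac

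RefSeq windows were matched for 27 of the 43 members. The core was found in 6 of their 30 windows (20%) and in 27.6% of all 32851 windows of that length. None of the windows of Wnt9b, Wnt3, Wnt9a, Wnt4 and Fzd10 held it.

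Wnt8b, a ligand of the embryonic forebrain, read 33.9, 47.1 and 65.7 normalized counts in GFP control, against 28.4, 26.7, 24.8 and 43.8 in Setd7 control, which overlap. After defeat it read 40.3, 41.6, 39.9 and 28.2 with GFP and 17.1 and 19.9 with Setd7, which do not. Its Setd7 difference was −0.97 ± 0.35 after defeat (limma adjusted p = 0.99) and −0.79 ± 0.23 averaged over defeat (limma adjusted p = 0.686). These are low counts, at most 65.7 in any library.

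Setd7 defeat replicate 1 held the highest value of 12 of 43 members (27.9%), against 9.47% of all genes tested. Wnt6 read 219.6 normalized counts there and 4.69 to 37.4 in the other 12 libraries, 20.6 times their median. Wnt16 read 44.1 against 3.91 to 25.9, Sfrp4 85.3 against 16.4 to 63.9 and Dkk2 66.2 against 16.4 to 51.8. The other 8 were Fzd2, Fzd6, Fzd7, Fzd8, Fzd9, Lrp5, Lgr4 and Wnt5b, at 1.19 to 1.82 times the median of the other libraries. All 16 meningeal fibroblast markers were higher in Setd7 defeat than in either group it was compared with. Their summed level was 31397 in this library, 7516 in Setd7 defeat replicate 2, 6935 to 9084 in GFP control, 6109 to 9352 after defeat with GFP and 6607 to 10756 in Setd7 control. Endothelial and mural cell markers were also higher in Setd7 defeat (17 of 17 against GFP defeat and 16 of 17 against Setd7 control), with a mean log2 level of 10.32 in replicate 1 and 9.55 to 9.98 in the other libraries. Markers of GABA neurons were higher in both comparisons (8 of 8 in each), and neither of these lists was tested as a covariate. Setd7 defeat replicate 2 read 4.69 for Wnt6, the lowest of all libraries.

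Between the sexes, 3 members had an unadjusted p under 0.05, all higher in females, against 2.06% of all genes higher and 1.81% lower (3.87% together). Dkk2 was higher by 0.77 ± 0.27, Rspo2, a secreted enhancer of Wnt signalling, by 0.54 ± 0.19 and its receptor Lgr6 by 0.49 ± 0.19 (limma adjusted p = 0.999 for each). Dkk2 had a lowest, median and highest value of 31.2, 41.6 and 66.2 normalized counts over 6 female libraries and 16.4, 23.2 and 51.8 over 7 male libraries. For Rspo2 these were 86.8, 102 and 155 in females and 58.5, 78.6 and 104 in males, and for Lgr6 140.5, 179 and 199.6 and 83.1, 123 and 189. The sexes overlapped for all 3 genes. Setd7 defeat replicate 1, the highest library for Dkk2, was female, and 16 of 16 meningeal fibroblast markers were higher in females. With their mean as a covariate, 2 members were higher and 2 lower in females at an unadjusted limma p under 0.05 (4.8% of all genes together). Over the alternative fits, the differences ranged from 0.56 to 0.97 for Dkk2, 0.38 to 0.64 for Rspo2 and 0.29 to 0.74 for Lgr6. Without the 3 libraries low in Th, the difference in Lgr6 was 0.74.

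The rest of the pathway was read from lists of 36 intracellular and membrane genes, 13 further extracellular inhibitors and feedback genes (12 tested) and 15 target genes. None of their genes passed limma in any comparison. For Setd7 without defeat, 3 of 36 intracellular and membrane genes had an unadjusted p under 0.05, against 8.01% of all genes. These were Tcf7l2 (−2.21 ± 0.47), the polarity cadherin Celsr3 (−0.35 ± 0.10) and the Wnt5a receptor Ror1 (−0.66 ± 0.29), all lower (3.7% of all genes). Tcf7l2 read 9559 in GFP control replicate 3, where only some thalamus markers were high, and 949 to 1320 in Setd7 control. Its difference was −1.16 with the thalamus marker mean as a covariate and −1.125 without the 3 libraries low in Th. For defeat with GFP, 2 of these 36 genes were higher and 4 lower at such a p, against 4.87% and 4.38% of all genes. With the smallest p were Tle2, a TCF/LEF co-repressor (−0.55 ± 0.18), Tcf7l2 (−1.35 ± 0.47), Celsr3 (−0.27 ± 0.10) and Bcl9l, a beta-catenin co-activator (0.14 ± 0.06). The Frizzled-degrading ligase Rnf43 of the inhibitor and target lists was also among them (0.45 ± 0.14). Without the 3 libraries low in Th, which leaves 1 GFP control library, this Tcf7l2 difference was −0.05. It was −0.89 with the thalamus marker mean as a covariate and −1.65 without the 2 libraries richest in thalamus markers.

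Axin2, a widely used target of beta-catenin, had no unadjusted p under 0.05 in any comparison, and the median difference of the 15 targets was −0.02 with Setd7 and no defeat, and 0.00 with defeat in the GFP groups, against 0.01 and 0.00 over all genes. For Setd7 after defeat, 2 of 15 target genes had an unadjusted limma p under 0.05, both higher (2.59% of all genes). They were Apcdd1 (0.30 ± 0.10) and Tnfrsf19 (0.20 ± 0.08). Apcdd1 read 1482 and 1506 normalized counts in Setd7 defeat replicates 1 and 2, against 1054 to 1312 in GFP defeat. Tnfrsf19 read 1909 in replicate 1, the library rich in meningeal markers, and 1657 in replicate 2, against 1415 to 1624 in GFP defeat. For defeat with Setd7, Apcdd1 (0.36 ± 0.10) and Wls, which carries Wnts to the cell surface (0.36 ± 0.14), were higher. Wls read 2047 normalized counts in Setd7 defeat replicate 1 and 1536 in replicate 2. It read 1220 to 1472 in Setd7 control and 1380 to 1746 in the GFP libraries. Averaged over the viruses, defeat gave higher values of Apcdd1 (0.18 ± 0.07), Rnf43 (0.28 ± 0.10) and Sostdc1 (0.60 ± 0.23), a secreted inhibitor, and lower ones of Celsr3 (−0.19 ± 0.07) and Tcf7 (−0.40 ± 0.17). The averaged Setd7 differences were −1.43 ± 0.36 for Tcf7l2, −0.27 ± 0.07 for Celsr3 and 0.12 ± 0.05 for Tnfrsf19. The interactions were 0.36 ± 0.13 for Apcdd1, 0.46 ± 0.18 for Wls and 1.56 ± 0.71 for Tcf7l2. Without the 3 libraries low in Th, the averaged Setd7 difference of Tcf7l2 was −0.996 and its interaction 0.26. With the thalamus marker mean as a covariate they were −0.70 and 0.92. Females had lower values than males of Tcf7l2 (−1.07 ± 0.34), Celsr3 (−0.19 ± 0.07), Lef1 (−0.59 ± 0.24) and Bcl9l (−0.10 ± 0.04) and higher ones of Tnfrsf19 (0.12 ± 0.05). The 3 libraries with the highest thalamus marker means were all male, and 11 of 11 thalamus markers were lower in females. With their mean as a covariate, the sex difference was −0.48 for Tcf7l2, −0.18 for Lef1 and −0.21 for Celsr3. None of these list differences passed adjustment.

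Exons of 7 members overlap a gene on the opposite strand in the annotation used for lengths: 17.8% of Fzd5, 16.1% of Sfrp2, 13.1% of Rspo3, 8.8% of Wnt11, 6.61% of Wnt7b, 4.58% of Wnt5a and 3.15% of Fzd6. Whether counting used strand is not given in the sources used here, so reads of these overlaps, and of Fzd10 and Fzd10os, cannot be assigned to one gene with certainty.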

How the data were processed

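The members and all gene lists were chosen with earlier results of these data known. Per the labels, total RNA was purified with RNeasy Micro kits and made into TruSeq RiboZero libraries. Per the submitters' processing notes, Bowtie2, featureCounts, DESeq2 and GRCm39 were used, with no versions given. The table that the authors deposited holds signal, that is counts divided by size factors, for 26264 genes in 13 libraries.

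Genes with 10 or more normalized counts in at least 2 libraries were tested (17755 kept, 8509 dropped). limma 3.58.1 with a trend (R 4.3.3) was fitted to log2(normalized count + 1) over all libraries, with sex as a covariate beside 4 group means. Tests were two-sided, with Benjamini-Hochberg adjustment over all genes and a threshold of 0.05. The fit was tested on simulated data. A fold change on this scale understates the change of low genes.

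As alternatives, edgeR 4.0.16 and DESeq2 1.42.0 were run on recovered whole reads of 11 libraries (17624 genes). DESeq2 gave an adjusted p to 17282 genes for Setd7 without defeat, 11815 for defeat with GFP and 10448 for the averaged Setd7 effect. In the other comparisons all 17624 genes had one. Each library's values divide by 1 constant (its step) into whole reads: 100% of 341432 values lay within 0.01 of a whole read. In GFP defeat replicate 4 (step 1.008) and Setd7 defeat replicate 1 (step 1.003), 100% of values were also whole reads. An automatic unit check did not recognise steps so near 1, and for that reason both were left out of the count tests. Those tests were planned on all 13 libraries. Further alternatives were other pseudocounts, filters and scaling, no sex term, robust fitting, leaving out libraries, fitting only the groups compared, and marker means as covariates. Leaving out the 2 libraries highest in Wnt9b and Wnt9a, the Wnt9b bound without single libraries and the thalamus covariate for pathway genes were chosen after seeing the data.

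Effects are printed for members with an unadjusted p under 0.05 or among the 3 smallest of a comparison, and for at most 5 such genes from the pathway lists. Values and motifs of other members were picked after they were seen. Upstream sequences are from RefSeq (GRCm38.p6), matched by symbol, and exon lengths from GENCODE M21. Every column of the table was used. Marker lists were dopamine neurons, thalamus, meningeal fibroblasts, endothelial and mural cells, choroid plexus, astrocytes, oligodendrocytes and their precursors, microglia, red nucleus and oculomotor neighbours, and GABA neurons.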

Additional observations from a re-analysis of the deposited data

Results flagged for a closer look

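In groups of 4 libraries, 1 library stood far from the other 3 in 10 of 86 cases, where chance gives about 4.3. In GFP defeat replicate 4, Fzd5 (739.8 normalized counts) and Wnt3 (496.9) were highest and Wnt8b (28.2) lowest of its group. In the other GFP defeat libraries Fzd5 read 212.6 to 275.7, Wnt3 241 to 272 and Wnt8b 39.9 to 41.6. GFP defeat replicate 1 was highest in Rspo4 (28.4, against 2.35 to 4.16 in the others) and GFP defeat replicate 2 in Sfrp1 (718, against 254 to 304). Among the Setd7 control libraries, replicate 4 was highest in Dkk3 (3926, against 3173 to 3256) and replicate 3 in Fzd5 (452, against 277.5 to 288.5) and Wnt9b (29.1, against 0 to 2.97). Setd7 control replicate 1 was highest in Sfrp2 (339.6, against 267 to 279) and lowest in Wnt4 (41.5, against 99.2 to 106).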

How the results depend on the processing

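Of 43 named member differences, 42 kept their direction under every alternative run (28 settings, 1178 values). The exception was Wnt3 for Setd7 without defeat, which was 0.0037 with the thalamus marker mean as a covariate. The cause was not tested. No member passed limma or edgeR under any setting, leave-one-out fits included (0 to 0 members called in each comparison). DESeq2, on 11 libraries, called 1 member (Dkk3) for Setd7 without defeat, against 0 by limma. Over all genes, DESeq2 called 45 for Setd7 without defeat, 26 for defeat with GFP, 3 for Setd7 after defeat, 1 for defeat with Setd7, 0 for the interaction, 36 for the averaged Setd7 effect, 5 for the averaged defeat effect and 24 for sex. limma called 1 for the averaged Setd7 effect, 11 for sex and 0 for the others, and edgeR 1, 9 and 0. The number of members at an unadjusted p under 0.05 ranged from 2 to 12 for Setd7 without defeat, 2 to 8 for defeat with GFP, 2 to 7 for Setd7 after defeat, 1 to 7 for defeat with Setd7, 1 to 6 for the interaction, 4 to 11 for the averaged Setd7 effect, 1 to 11 for the averaged defeat effect and 0 to 6 for sex. The share of all genes at such a p moved as well. In limma fits with 2 or more libraries per group, it was 4.26% to 9% for Setd7 without defeat. For defeat with GFP it was 6.33% to 10.3%, and for Setd7 after defeat 3.21% to 5.87%. For defeat with Setd7 it was 1.95% to 3.14%, and for the interaction 3.65% to 5.97%. For the averaged Setd7 effect it was 3.42% to 9.33%, for the averaged defeat effect 3.53% to 6.41% and for sex 2.65% to 4.8%. Dkk3 ranged from 0.40 to 0.65 for Setd7 without defeat and from 0.39 to 0.62 for defeat with GFP. No paired analysis was possible because the library numbers differ between all groups. Groups of 2 to 4 libraries, low reads of Wnt9b, Wnt6 and Wnt16, and the unsettled origin of Setd7 defeat replicate 1 limit these comparisons.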
